A study of Mus musculus with 12 samples.

Results

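The genes described here encode laminin chains, the proteins that link laminin to the rest of the basement membrane, the Fraser complex, and the integrins and dystroglycan that bind them at the cell surface. A list of 35 such genes was taken by symbol, and all 35 were found among the 53465 genes of the deposited tables. It holds 5 laminin alpha chains, 3 beta chains and 1 gamma chain, 2 nidogens, 2 proteoglycans, 4 genes of the Fraser complex, nephronectin, 11 integrin alpha chains, 5 integrin beta chains and dystroglycan. The rule goes by gene family and uses no measured value, but the list was drawn up with earlier results of these data known, so the share of it that is called describes this list alone.

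RNA of mouse forelimb buds was sequenced in 12 libraries, 3 in each of 4 groups, and each library came from 1 pair of buds of a Swiss albino embryo. In the Tbx3 series, buds labelled Tbx3-deficient carry on both copies of Tbx3 an allele, Tbx3ΔVenus, with a Venus reporter, a transcription termination signal and a polyA signal at the start codon. They were set against Tbx3 wild-type buds of the same stage, E9.75 to E10 with 28 to 31 somites. In the Hand2 series, Hand2-deficient buds (Prrx1-Cre;Hand2Δ/Δc) lack Hand2 in the cells where Prrx1-Cre acts, which is the limb mesenchyme. They were set against Hand2 wild-type buds that carry Prrx1-Cre as well, both at E10 to E10.25 with 31 to 33 somites. Stage, colony, the gene targeted, the kind of loss and the sequencing depth differ together between both series and cannot be told apart. The ectoderm of Hand2-deficient buds is not a target of the Cre driver.

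Laminins are trimers of an alpha, a beta and a gamma chain that polymerise into the sheet on which the limb ectoderm rests. Nidogens, perlecan and agrin connect that sheet to collagen IV and to the cell surface, and integrins and dystroglycan are its receptors. The Fraser complex lies below the sheet: in mouse skin FRAS1 and FREM2 are made mainly by the epidermis and FREM1 mainly by the dermal mesenchyme, and mice lacking any of them develop epidermal blisters and limb defects such as syndactyly. Nephronectin is a basement membrane ligand of the integrin of alpha 8 and beta 1 chains, known best from the outgrowth of the ureteric bud in the kidney.

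Total counts were 23.3 to 31.8 M (1e6) in the Tbx3 series and 60.2 to 68.6 M in the Hand2 series. Hand2 itself checked the labels of its series, with 0.187, 2.21 and 0.384 CPM in Hand2-deficient libraries against 120, 120 and 126 CPM in Hand2 wild-type libraries. Tbx3 did not separate the groups of its series, with 80.6, 79.3 and 73.3 CPM in the libraries labelled Tbx3-deficient and 78.0, 77.3 and 79.3 CPM in Tbx3 wild-type libraries. The Tbx3 count thus does not check the labels of its series, which are used as given, and why it did not differ was not tested. Hand2-deficient replicate 1 had 5.37% of its counts on a single ribosomal-RNA-like gene. Embryo sex, read from Xist and Y-linked genes, was not balanced: each deficient group held 2 males and 1 female, against 3 females among the Tbx3 wild-type embryos and 1 male and 2 females among the Hand2 wild-type embryos. Markers of limb mesenchyme were abundant in every library, with a summed level of 1772 to 2693 CPM over 8 genes.

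CPM are counts scaled by TMM, within each series, to 1e6 per library, and levels are compared between genes only after division by the length of their exons, as CPM per kb. The integrin beta 1 chain Itgb1, the partner of most laminin-binding and fibronectin-binding alpha chains, had the highest level of the 35 genes in each of the 4 groups, 76.9 to 80.2 CPM per kb. Itgb5, a partner of the alpha v chain, came next with 42.3 to 48.8 CPM per kb. Of the laminin chains, the gamma chain Lamc1 was at 19.6 to 22.2 CPM per kb and the beta chain Lamb1 at 13.3 to 16.0. Lama5 was the most abundant alpha chain at 7.75 to 9.36 CPM per kb, ahead of Lama4 at 3.17 to 4.55 and Lama1 at 2.90 to 4.10.

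The linkers were close to Lamc1 in level, with Nid2 at 22.7 to 26.4 CPM per kb, Agrn at 22.1 to 25.4 and Nid1 at 17.2 to 24.2. The Fraser genes lay below them, between 1.99 CPM per kb for Grip1 in Hand2 wild-type buds and 4.93 for Frem2 in buds labelled Tbx3-deficient. Genes known best from stratified skin or muscle were at the low end: Lama3 was at 0.0139 to 0.0544 CPM per kb and Itga7, the muscle laminin receptor chain, at 0.0211 to 0.0484. Between the wild-type groups of both series the mean levels lay within 1.5-fold of each other for 34 of the 35 genes, Lama3 being the exception. This is a description, since the series were scaled separately.

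**Figure D1:**
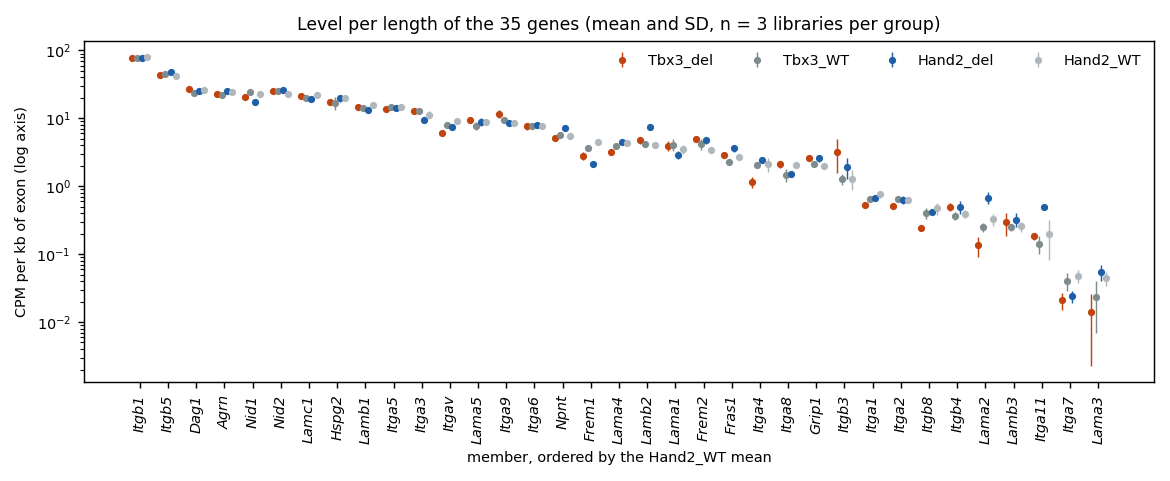
Level of each of the 35 genes in CPM per kb of exon on a log axis, with points for group means and bars for the SD over 3 libraries, in the order of the Hand2 wild-type mean. Itgb1 is highest at 76.9 to 80.2 CPM per kb and Lama3 and Itga7 are lowest in all 4 groups.

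Loss of Hand2 in the limb mesenchyme went with changes in 12 of the 35 genes, 6 higher and 6 lower in Hand2-deficient buds. The genes that rose were Fras1, Frem2, Grip1, Npnt, Lama2 and Lamb2, and those that fell were Frem1, Lamb1, Lamc1, Nid1, Itga8 and Itgav. All 4 Fraser genes were among them, Frem1 on one side and the other 3 on the other side. A call is an adjusted p under 0.05 in edgeR's quasi-likelihood test with Benjamini-Hochberg adjustment over all genes tested. The called share was 34.3% of the genes described here, beside 10.5% of all 17488 genes tested. By direction the shares were 17.1% higher, beside 4.68% of all genes, and 17.1% lower, beside 5.82%. The median log2 fold change was 0.03 over the 35 genes and 0.01 over all genes tested.

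The count of calls moved with single libraries. The count of 12 became 4, 2, 3 and 2 without Hand2-deficient replicate 1, Hand2-deficient replicate 3, Hand2 wild-type replicate 1 and Hand2 wild-type replicate 3, while the share of all genes called became 2.72%, 2.05%, 2.04% and 1.21%. With embryo sex as a covariate, Frem1, Lamb2, Npnt and Itga8 held their calls.

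**Figure D2:**
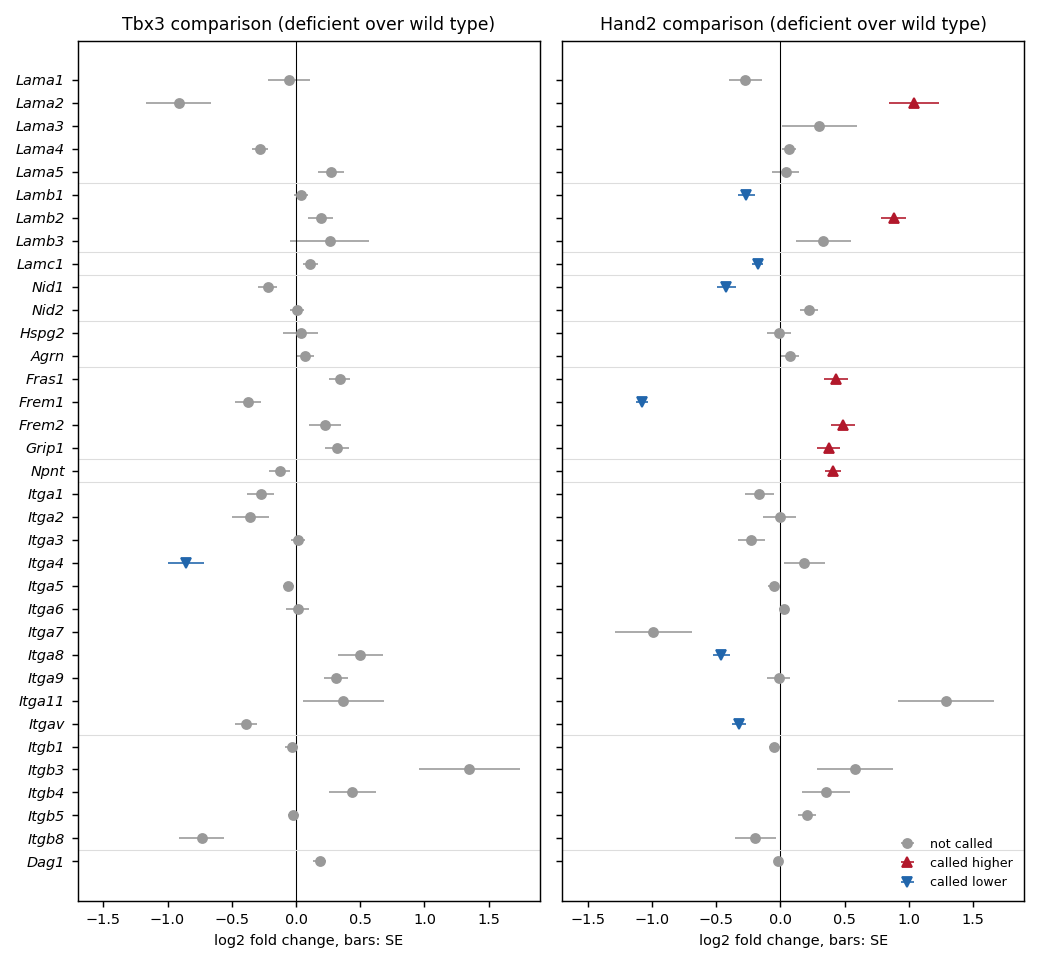
Log2 fold change of each gene, deficient over wild type, with bars for 1 SE on each side, in the Tbx3 comparison on the left and the Hand2 comparison on the right. Triangles mark calls at an adjusted p under 0.05: 1 of 33 genes tested on the left and 12 of 35 on the right. Lama3 and Itga7 have no point on the left because their counts were too low to be tested.

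The promoters of the genes on which the comparisons turn most are printed here so that the letters around each start site can be read beside the values: Frem1 and Lamb2, whose Hand2 calls held under every alternative, the ligand and receptor Npnt and Itga8, and Itga4, the gene called in the Tbx3 comparison. Each is 300 bases from RefSeq on GRCm38.p6, from 250 before to 50 after the start, 5′ to 3′ on the gene's strand. Capitals mark CANNTG, the E-box that bHLH factors such as HAND2 can bind, or GGTGTGA, a T-box half-site of the TBX family; both strands were searched. The windows are chr4:83052117-83052416 (minus strand) for Frem1, chr9:108479612-108479911 (plus) for Lamb2, chr3:132950242-132950541 (minus) for Npnt, chr2:12301895-12302194 (minus) for Itga8 and chr2:79255176-79255475 (plus) for Itga4.
Frem1: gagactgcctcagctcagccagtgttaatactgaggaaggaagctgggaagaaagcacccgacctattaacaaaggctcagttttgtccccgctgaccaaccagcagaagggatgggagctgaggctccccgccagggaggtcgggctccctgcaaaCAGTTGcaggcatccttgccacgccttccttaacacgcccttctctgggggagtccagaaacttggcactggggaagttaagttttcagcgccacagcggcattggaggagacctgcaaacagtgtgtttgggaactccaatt
Lamb2: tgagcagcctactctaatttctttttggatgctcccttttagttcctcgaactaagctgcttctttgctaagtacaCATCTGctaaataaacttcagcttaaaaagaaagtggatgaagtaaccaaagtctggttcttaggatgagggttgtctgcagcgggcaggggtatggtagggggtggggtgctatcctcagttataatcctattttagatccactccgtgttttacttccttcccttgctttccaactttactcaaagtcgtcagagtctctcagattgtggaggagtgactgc
Npnt: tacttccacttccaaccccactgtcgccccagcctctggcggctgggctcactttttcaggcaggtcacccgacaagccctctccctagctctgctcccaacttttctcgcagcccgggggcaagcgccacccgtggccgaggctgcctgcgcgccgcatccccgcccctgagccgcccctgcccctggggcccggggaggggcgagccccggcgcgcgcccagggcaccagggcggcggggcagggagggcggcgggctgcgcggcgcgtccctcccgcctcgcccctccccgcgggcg
Itga8: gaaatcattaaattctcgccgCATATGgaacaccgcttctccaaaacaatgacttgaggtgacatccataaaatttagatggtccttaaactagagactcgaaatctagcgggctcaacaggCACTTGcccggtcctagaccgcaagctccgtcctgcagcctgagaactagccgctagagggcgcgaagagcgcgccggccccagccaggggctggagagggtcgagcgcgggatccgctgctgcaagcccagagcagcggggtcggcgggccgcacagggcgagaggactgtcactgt
Itga4: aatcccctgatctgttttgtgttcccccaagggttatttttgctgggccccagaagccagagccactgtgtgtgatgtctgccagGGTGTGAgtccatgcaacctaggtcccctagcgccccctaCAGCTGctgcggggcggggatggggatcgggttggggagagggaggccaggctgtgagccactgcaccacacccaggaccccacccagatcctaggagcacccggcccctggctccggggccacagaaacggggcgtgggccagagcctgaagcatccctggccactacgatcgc

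Frem1 had 1 CANNTG match, Lamb2 had 1, Npnt had 0, Itga8 had 2 and Itga4 had 1, next to 1 GGTGTGA match in Itga4. Matches of this kind are common. Promoters were at hand for 25 of the 35 genes, and 68.0% of these held CANNTG, against 72.3% of all 32851 promoters of the same length. The form CATCTG, which is also counted as CANNTG and is the 1 match in Lamb2, stood in 5 of the 25 promoters and in 17.2% of all promoters. GGTGTGA stood in 1 of the 25 and in 3.98% of all. A match describes the letters only.

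The Fraser complex split in the Hand2 comparison. Frem1 (ENSMUSG00000059049, GRCm38 chromosome 4, 82897920 to 83052339), the member secreted mainly by mesenchyme in mouse skin, had 28.9, 29.9 and 30.3 CPM in Hand2-deficient libraries, against 59.1, 63.0 and 65.7 CPM in Hand2 wild-type libraries. The groups lay far apart and varied little, at 29.7 ± 0.704 and 62.6 ± 3.33 CPM (SD, n = 3 each). The log2 fold change was −1.08 (SE 0.0489) with an adjusted p of 0.000162. It had the smallest adjusted p of the 35 genes in this comparison, and the call held in each of the 13 alternatives run for it, with adjusted p at most 0.00385.

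Fras1 (ENSMUSG00000034687, chromosome 5, 96373955 to 96784728), a transmembrane member of the complex, had 68.2, 56.5 and 67.3 CPM in Hand2-deficient libraries, against 47.7, 51.8 and 42.7 CPM in Hand2 wild-type libraries. It rose by 0.43 on the log2 scale (SE 0.0928, adjusted p 0.0375), and the groups did not overlap. The call was not made without Hand2 wild-type replicates 1 or 3 or Hand2-deficient replicates 1 or 3, with adjusted p of 0.106, 0.122, 0.102 and 0.103. Frem2 (ENSMUSG00000037016, chromosome 3, 53513938 to 53657355), which FRAS1 needs to stay in the basement membrane, had 70.9, 54.3 and 64.3 CPM in Hand2-deficient libraries, against 43.2, 46.6 and 45.5 CPM in Hand2 wild-type libraries. It rose by 0.49 (SE 0.0923, adjusted p 0.0283), with all deficient libraries above all wild-type ones. Leaving out the same libraries, Hand2 wild-type replicates 1 or 3 or Hand2-deficient replicates 1 or 3, ended the call, with adjusted p of 0.0909, 0.101, 0.0598 and 0.0821.

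Grip1 (ENSMUSG00000034813, chromosome 10, 119453830 to 120087261) encodes the PDZ adaptor that binds the cytoplasmic tails of FRAS1 and FREM2 and carries them to the basal cell surface. It had 18.9, 20.4 and 23.2 CPM in Hand2-deficient libraries, against 16.4, 15.3 and 16.4 CPM in Hand2 wild-type libraries. It rose by 0.38 (SE 0.0888, adjusted p 0.0442), a call that was lost without any of the 6 libraries, with adjusted p of 0.0651 to 0.132, and at the depth of the Tbx3 series, with 0.0741. With embryo sex as a covariate, Fras1, Frem2 and Grip1 had adjusted p of 0.0822, 0.055 and 0.0889, at log2 values of 0.42, 0.42 and 0.36, so of the Fraser genes only Frem1 remained called there.

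Frem1, Fras1 and Frem2 are the matrix proteins of the complex, and their makeup was set beside their sum. Per length, Frem1 made up 18.4%, 22.7% and 20.05% of their sum in Hand2-deficient libraries, against 41.5%, 41.2% and 44.6% in Hand2 wild-type libraries. The mean share was 20.4 ± 2.17% in Hand2-deficient buds and 42.4 ± 1.88% in wild-type buds, and the sum was 10.5 ± 0.962 and 10.6 ± 0.384 CPM per kb (SD, n = 3 each). These shares follow from the values above and carry no test of their own. In bulk buds, fewer cells of a type and less RNA per cell cannot be told apart.

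The Fraser genes were read beside the markers of ectoderm and mesenchyme. The summed level of 14 ectoderm and ridge markers was 404 to 443 CPM in Hand2-deficient libraries and 457 to 494 CPM in Hand2 wild-type libraries. Of the 14 log2 values, 10 were negative and 4 positive, with a median of −0.04. Part of the gap between these sums was Fgf8. By edgeR 1 of the 14 was called, the ridge growth factor Fgf8, beside 5.82% of all genes called lower. It had 24.7, 25.5 and 28.7 CPM in Hand2-deficient libraries against 37.3, 48.4 and 47.1 CPM in wild-type libraries (log2 −0.75, adjusted p 0.0144). An unadjusted p under 0.05 was reached by 3 of the 14, DESeq2 called 3, and 3 lay lower without overlap. Over all genes tested these shares were 32.4%, 22.9% and 19.5%. The 8 mesenchyme markers summed to 2261 to 2693 CPM in Hand2-deficient libraries and 1934 to 2129 CPM in wild-type libraries. Of these, 4 of 8 were called higher, beside 4.68% of all genes tested. The part of ectoderm and mesenchyme content in the values of the Fraser genes was not tested.

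Markers of other cell types were read as well. Over all genes tested in the Hand2 comparison, edgeR called 4.68% higher and DESeq2 called 22.9% in either direction. An unadjusted p under 0.05 was reached by 32.4%. Endothelial markers (10 genes) summed to 364 to 397 CPM in Hand2-deficient libraries and 342 to 347 CPM in Hand2 wild-type libraries, and 1 was called higher. Muscle progenitor markers summed to 171 to 175 CPM against 133 to 157 CPM. By edgeR 0 of the 6 were called, 2 had an unadjusted p under 0.05 and DESeq2 called 2. Body wall markers (10 genes) summed to 287 to 322 CPM in Hand2-deficient libraries and 184 to 237 CPM in wild-type libraries, with 2 called higher, but most of that sum was Lhx2, which is 1 of the 2. The other 9 summed to 34.95, 63.9 and 50.6 CPM in Hand2-deficient libraries and 44.2, 26.3 and 14.2 CPM in wild-type libraries, and these overlapped. Gata4, the second gene called, had 2.12, 7.30 and 5.52 CPM in Hand2-deficient libraries and 1.17, 0.204 and 0.333 CPM in wild-type libraries. It did not overlap between the groups (log2 3.14, adjusted p 0.0402). Of the 8 genes of this list tested, Lhx2 among them, 7 had positive log2 values and 1 a negative one. Macrophage markers summed to 9.71 to 17.6 CPM against 5.40 to 7.95 CPM, with 2 of 8 called higher. None of these lists had a gene at 0 in all 12 libraries, and their part in the Hand2 results was not tested.

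Nephronectin and its receptor chain moved in opposite directions in the Hand2 comparison. Npnt (ENSMUSG00000040998, chromosome 3, 132881745 to 132950291) had 37.4, 35.3 and 36.2 CPM in Hand2-deficient libraries, against 26.1, 29.7 and 26.1 CPM in Hand2 wild-type libraries. It rose by 0.41 (SE 0.0647, adjusted p 0.018), with no overlap. The call was lost without Hand2 wild-type replicates 1 or 3 or Hand2-deficient replicates 1 or 3, with adjusted p of 0.0609, 0.0769, 0.0553 and 0.0577, and it held with embryo sex as a covariate, with 0.0473.

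Itga8 (ENSMUSG00000026768, chromosome 2, 12106632 to 12301922), the alpha chain of the nephronectin receptor, had 11.0, 11.3 and 11.2 CPM in Hand2-deficient libraries, against 15.3, 15.9 and 14.96 CPM in Hand2 wild-type libraries. Both groups were tight and clear of each other. It fell by 0.46 on the log2 scale (log2 −0.46, SE 0.0648, adjusted p 0.013). Without Hand2 wild-type replicate 3 or Hand2-deficient replicate 3 the adjusted p was 0.0541 and 0.0502, and with embryo sex as a covariate it was 0.0378. Per length, the ratio of Npnt to Itga8 was 4.97, 4.56 and 4.75 in Hand2-deficient libraries, against 2.501, 2.735 and 2.559 in wild-type libraries. Of the exon bases of Itga8, 5.05% are shared with E030013I19Rik, and since the strand of the reads is not given in the sources used here, reads of overlapping genes cannot be told apart.

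**Figure D3:**
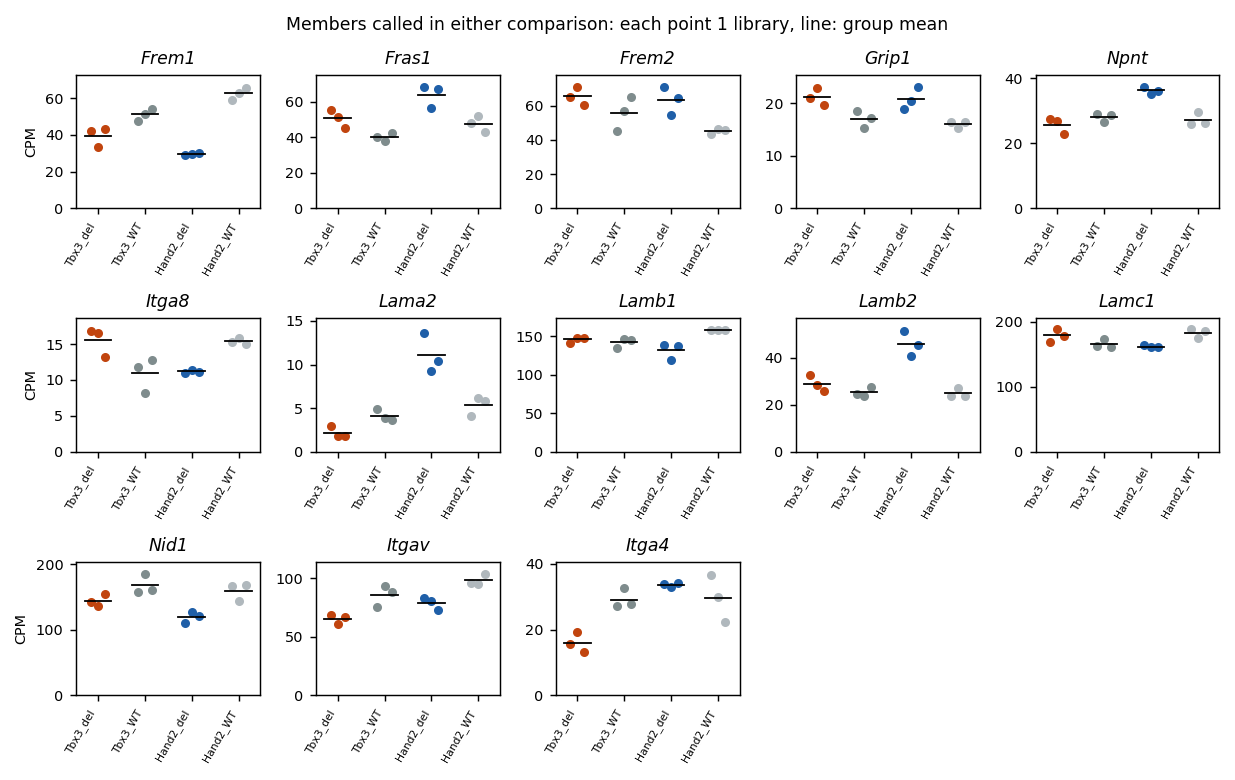
Level in CPM of the 13 genes called in either comparison, 1 panel per gene, with 1 point per library and a line at each group mean; every axis starts at 0. Frem1 lies at 28.9 to 30.3 CPM in Hand2-deficient libraries and 59.1 to 65.7 CPM in Hand2 wild-type libraries, and Itga4 lies at 13.3 to 19.2 CPM in libraries labelled Tbx3-deficient and 27.1 to 32.7 CPM in Tbx3 wild-type libraries.

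Of the laminin chains, Lamb2 and Lama2 rose and Lamb1 and Lamc1 fell in Hand2-deficient buds. Lamb2 (ENSMUSG00000052911, chromosome 9, 108479736 to 108490530), the beta chain best known from kidney glomeruli and neuromuscular junctions, had 51.3, 40.9 and 45.3 CPM in Hand2-deficient libraries, against 23.9, 27.1 and 23.6 CPM in Hand2 wild-type libraries. It rose by 0.88 (SE 0.0952, adjusted p 0.00512), and the lowest deficient library lay well above the highest wild-type one. The call held under each of the 13 alternatives, with adjusted p at most 0.0443. Lamb1 (ENSMUSG00000002900, chromosome 12, 31265234 to 31329644), the beta chain of most embryonic laminins, had 139, 119 and 138 CPM in Hand2-deficient libraries, against 158, 159 and 158 CPM in wild-type libraries.

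The fall of Lamb1 was small (log2 −0.26, SE 0.0637, adjusted p 0.0457). Its call was lost without Hand2 wild-type replicates 1, 2 or 3 or Hand2-deficient replicates 1 or 3, with adjusted p of 0.124, 0.0717, 0.139, 0.076 and 0.0874, at the depth of the Tbx3 series with 0.0539, and with embryo sex as a covariate with 0.0553. Per length, Lamb2 made up 37.1%, 35.4% and 34.2% of the 3 beta chains in Hand2-deficient libraries, against 19.4%, 21.6% and 19.3% in wild-type libraries. The sum of the beta chains was 21.1 ± 1.94 CPM per kb in Hand2-deficient buds and 20.3 ± 0.310 in wild-type buds (SD, n = 3 each).

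Lama2 (ENSMUSG00000019899, chromosome 10, 26980036 to 27619758), the alpha chain of muscle and nerve laminins whose loss causes muscular dystrophy, had 13.6, 9.26 and 10.4 CPM in Hand2-deficient libraries, against 4.14, 6.17 and 5.82 CPM in Hand2 wild-type libraries. It rose by 1.04 (SE 0.196, adjusted p 0.0276), with no overlap between the groups. The call was lost without Hand2 wild-type replicates 1 or 3 or Hand2-deficient replicates 1 or 3, with adjusted p of 0.0675, 0.0898, 0.0683 and 0.0704, and with embryo sex as a covariate, with 0.0593. Its level stayed low: per length, Lama2 made up 3.94 ± 0.540% of the 5 alpha chains in Hand2-deficient buds and 1.95 ± 0.397% in wild-type buds, while Lama5 made up 52.1% and 51.4%.

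Lamc1 (ENSMUSG00000026478, chromosome 1, 153218922 to 153332786), the gamma chain that nearly all embryonic laminins share, had 164, 161 and 162 CPM in Hand2-deficient libraries, against 189, 175 and 185 CPM in Hand2 wild-type libraries. It fell slightly (log2 −0.18, SE 0.0424, adjusted p 0.045). The call was lost without Hand2 wild-type replicates 1 or 3 or Hand2-deficient replicates 1, 2 or 3, with adjusted p of 0.14, 0.151, 0.0975, 0.0817 and 0.113. It was also lost with no filter on low counts (0.055), at the depth of the Tbx3 series (0.0683) and with embryo sex as a covariate (0.0852). The remaining laminin chains did not pass the test, with log2 values of −0.27 for Lama1, 0.30 for Lama3, 0.06 for Lama4, 0.04 for Lama5 and 0.33 for Lamb3.

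Nid1 (ENSMUSG00000005397, chromosome 13, 13437551 to 13512269), which bridges the laminin gamma 1 chain and collagen IV, had 110, 127 and 121 CPM in Hand2-deficient libraries, against 167, 145 and 168 CPM in Hand2 wild-type libraries. It fell by 0.42 on the log2 scale (log2 −0.42, SE 0.0757, adjusted p 0.0247), and the groups did not overlap. The call was lost without Hand2 wild-type replicates 1 or 3 or Hand2-deficient replicates 1 or 3, with adjusted p of 0.0831, 0.0944, 0.0669 and 0.0709, and with embryo sex as a covariate, with 0.058. Nid2, its paralog with overlapping function in mouse, had 141, 134 and 136 CPM in Hand2-deficient libraries and 123, 105 and 124 CPM in wild-type libraries, without overlap, but did not pass the test (log2 0.22, adjusted p 0.0794). Nid2 shares 8.45% of its exon bases with Rtraf on the opposite strand, a gene with a mean of 5399 counts beside 5791 for Nid2.

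Per length, the ratio of Nid1 to Nid2 was 0.585, 0.705 and 0.667 in Hand2-deficient libraries, against 1.01, 1.03 and 1.01 in Hand2 wild-type libraries. The proteoglycans perlecan and agrin, which bind laminin and growth factors, stood near 0 in change, with log2 values of −0.01 for Hspg2 (adjusted p 0.938) and 0.07 for Agrn (adjusted p 0.536). By level, Nid1 was at 17.2 CPM per kb and Nid2 at 26.4 in Hand2-deficient buds, against 23.0 for Nid1 and 22.7 for Nid2 in wild-type buds.

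**Figure D4:**
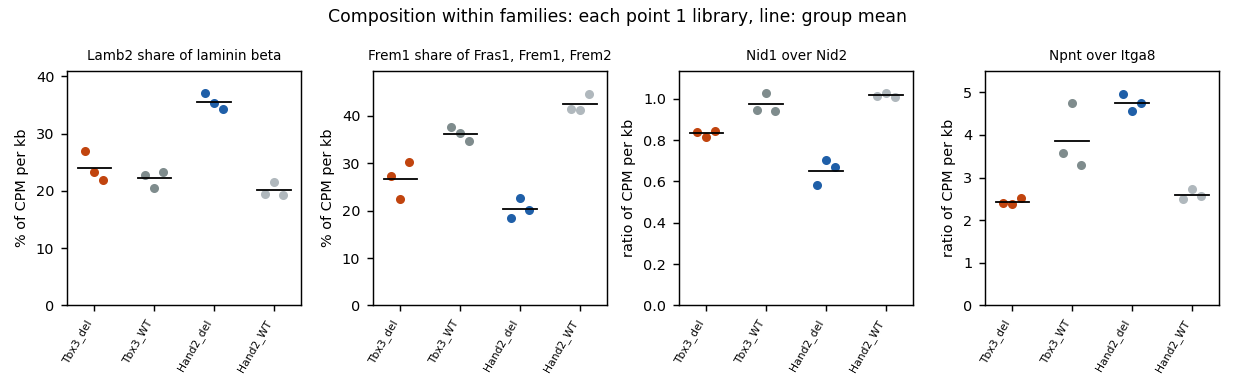
Makeup within families by group, 1 point per library and a line at each group mean: the share of Lamb2 in the laminin beta chains, the share of Frem1 in Fras1, Frem1 and Frem2, and the ratios of Nid1 to Nid2 and of Npnt to Itga8, all from CPM per kb. In each panel the 3 Hand2-deficient libraries are apart from the 3 Hand2 wild-type libraries, for example at 34.2% to 37.1% and 19.3% to 21.6% for Lamb2.

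Of the 11 integrin alpha chains, Itga8 and Itgav fell in Hand2-deficient buds, and of the 5 beta chains 0 were called by edgeR, with 1 at an unadjusted p under 0.05 and 1 called by DESeq2, Itgb5. Itgav (ENSMUSG00000027087, chromosome 2, 83724397 to 83806916), the alpha chain of receptors for vitronectin, fibronectin and latent TGF-beta, had 83.0, 80.2 and 73.3 CPM in Hand2-deficient libraries, against 96.3, 95.4 and 104 CPM in Hand2 wild-type libraries. It fell by 0.32 on the log2 scale (log2 −0.32, SE 0.0556, adjusted p 0.0221). The call was lost without Hand2 wild-type replicates 1 or 3 or Hand2-deficient replicate 3, with adjusted p of 0.0642, 0.0898 and 0.0601, and with embryo sex as a covariate, with 0.0506. Of the exon bases of Itgav, 5.9% are shared with Gm13684.

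The integrin chains that bind laminin did not pass the test. The log2 value was −0.23 for Itga3 (adjusted p 0.178), 0.03 for Itga6 (0.611), −0.05 for Itgb1 (0.462) and 0.35 for Itgb4 (0.237), the partner of alpha 6 in hemidesmosomes. Itga7 had 0.153, 0.228 and 0.207 CPM in Hand2-deficient libraries and 0.302, 0.466 and 0.408 CPM in Hand2 wild-type libraries, without overlap, at 9 to 32 counts per library (log2 −0.99, SE 0.300, adjusted p 0.0756). The collagen receptor chain Itga11 had 2.67, 2.45 and 2.44 CPM in Hand2-deficient libraries and 0.667, 1.73 and 0.680 CPM in Hand2 wild-type libraries. Its groups did not overlap and its log2 value of 1.29 (SE 0.371) was the highest of the 35 genes, but the adjusted p was 0.0675. Without Hand2 wild-type replicate 2, the highest of its group, the log2 value was 1.898 with an adjusted p of 0.00675. It also passed with DESeq2 (0.00438), with voom (0.0409) and at the depth of the Tbx3 series (0.0371), and it did not without any other single library, with adjusted p of 0.11 to 0.187. Itgb5 had 188, 159 and 173 CPM in Hand2-deficient libraries and 143, 155 and 152 CPM in wild-type libraries (log2 0.21, adjusted p 0.0916). The other integrins that did not pass the test had log2 values of −0.16 for Itga1, −0.01 for Itga2, −0.05 for Itga5, −0.01 for Itga9, −0.19 for Itgb8 and 0.58 for Itgb3.

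In the Hand2 comparison Dag1, dystroglycan, which holds laminin through its sugar chains, had 164, 159 and 162 CPM in Hand2-deficient libraries and 162, 166 and 163 CPM in Hand2 wild-type libraries. The groups overlapped, with a log2 value of −0.02 (adjusted p 0.776). Over the 35 genes, the groups of the Hand2 series did not overlap for 16, which is 45.7%, with 9 higher and 7 lower, beside 38.2% of all genes tested, of which 18.7% lay higher and 19.5% lower. An unadjusted p under 0.05 was reached by 16 of the 35 genes, beside 32.4% of all genes tested.

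In the Tbx3 comparison 1 of the 33 genes tested changed, Itga4, which was lower in buds labelled Tbx3-deficient. That is 3.03% of the genes tested here, beside 1.01% of all 15130 genes; over all genes 0.284% were called lower and 0.727% higher. Lama3 and Itga7 were not tested, having 1 to 12 counts per library. DESeq2 called 5 of the genes, adding Lama4, Fras1, Frem1 and Itgav. That is 15.2%, beside 3.45% of all genes tested by DESeq2. The median log2 value was 0.02 over the 33 genes and −0.00 over all genes tested.

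Itga4 (ENSMUSG00000027009, chromosome 2, 79255426 to 79333123) encodes the alpha 4 chain that binds fibronectin and the adhesion molecule VCAM1 and is made by early mesenchyme, neural crest and blood cells. It had 15.7, 19.2 and 13.3 CPM in libraries labelled Tbx3-deficient, against 27.1, 32.7 and 27.7 CPM in Tbx3 wild-type libraries. The groups were well apart, at 16.1 ± 2.93 and 29.1 ± 3.07 CPM (SD, n = 3 each). The log2 fold change was −0.86 (SE 0.137, adjusted p 0.0397). The call was lost without Tbx3 wild-type replicates 1, 2 or 3 or Tbx3-deficient replicates 1 or 3, with adjusted p of 0.0882, 0.124, 0.118, 0.0751 and 0.0918, and with embryo sex as a covariate, with 0.0819. The log2 value with that covariate was −1.13.

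The Tbx3 wild-type embryos were all female, and of those labelled Tbx3-deficient 2 were male and 1 was female. The female library labelled Tbx3-deficient, replicate 3, had 13.3 CPM of Itga4, and 1 library cannot tell sex and group apart. Itga4 shares 8.04% of its exon bases with Cerkl on the opposite strand, which had a mean of 7.32 counts beside 1314 for Itga4. In the Hand2 series Itga4 had 34.0, 32.9 and 34.1 CPM in Hand2-deficient libraries and 36.5, 30.1 and 22.2 CPM in wild-type libraries, with overlapping groups (log2 0.19, adjusted p 0.457).

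Itga4 was read beside markers of other cells in the bud. Mesenchyme markers summed to 1772 to 1946 CPM in libraries labelled Tbx3-deficient and 1941 to 1993 CPM in Tbx3 wild-type libraries, with 1 of 8 called lower, the forelimb gene Tbx5. Neural crest markers summed to 63.5 to 88.1 CPM against 46.4 to 54.1 CPM and macrophage markers to 7.79 to 10.3 CPM against 2.69 to 6.22 CPM. Of these lists 3 of 6 and 4 of 8 genes were tested, and by edgeR 0 were called in either. An unadjusted p under 0.05 was reached by 1 and 3 of them, and DESeq2 called 1 in each list. Over all genes tested in the Tbx3 comparison these shares were 14.3% and 3.45%. Red cell markers (6 genes) summed to 1805 to 3578 CPM in libraries labelled Tbx3-deficient and 2532 to 4158 CPM in wild-type libraries. These ranges overlapped, and all 6 log2 values were negative, with a median of −0.35. By edgeR 0 of the 6 were called, with 0 at an unadjusted p under 0.05 and 0 called by DESeq2. Somite markers summed to 78.5 to 102 CPM against 62.6 to 66.2 CPM, and neuron markers to 28.1 to 46.1 CPM against 45.9 to 61.1 CPM. The list taken for body wall (10 genes), most of whose sum was again Lhx2, summed to 282 to 296 CPM against 250 to 305 CPM, which overlapped. Without Lhx2 the other 9 summed to 83.8, 114 and 58.9 CPM against 57.4, 14.1 and 22.0 CPM, without overlap. Of 8 genes of that list tested, 6 had positive and 2 negative log2 values, Lhx2 being 1 of the 2. By edgeR 0 of the 8 were called, 4 had an unadjusted p under 0.05 and DESeq2 called 1. The part of these cell types in the Itga4 result was not tested.

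The Fraser genes did not pass the test in the Tbx3 comparison. Frem1 had 42.4, 33.3 and 43.2 CPM in libraries labelled Tbx3-deficient and 47.9, 51.6 and 54.1 CPM in Tbx3 wild-type libraries, all lower than in wild type (log2 −0.37, SE 0.103, adjusted p 0.158). Fras1 had 55.4, 51.5 and 45.4 CPM in libraries labelled Tbx3-deficient and 40.1, 37.9 and 42.2 CPM in wild-type libraries (log2 0.34, SE 0.0806, adjusted p 0.114). Grip1 had 21.1, 22.9 and 19.7 CPM in libraries labelled Tbx3-deficient and 18.6, 15.4 and 17.1 CPM in wild-type libraries (log2 0.32, adjusted p 0.191). For all 3 the groups did not overlap, while Frem2 overlapped (log2 0.23, adjusted p 0.47). The 14 ectoderm and ridge markers summed to 468 to 480 CPM in libraries labelled Tbx3-deficient and 459 to 484 CPM in wild-type libraries, so these ranges overlapped. Per length, Frem1 made up 27.4%, 22.4% and 30.3% of Fras1, Frem1 and Frem2 in libraries labelled Tbx3-deficient, against 37.7%, 36.4% and 34.7% in wild-type libraries.

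The laminins and nidogens gave no call in this comparison either. Lama2 had 3.01, 1.80 and 1.78 CPM in libraries labelled Tbx3-deficient and 4.87, 3.86 and 3.65 CPM in Tbx3 wild-type libraries, without overlap (log2 −0.91, SE 0.251, adjusted p 0.158). Lama4, the alpha chain of vessel walls, had 41.1, 36.3 and 37.4 CPM in libraries labelled Tbx3-deficient and 48.5, 44.6 and 46.3 CPM in wild-type libraries (log2 −0.28, adjusted p 0.101). These groups did not overlap either. Lama5, an alpha chain of epithelial basement membranes, had 104, 102 and 114 CPM in libraries labelled Tbx3-deficient and 74.1, 98.7 and 92.0 CPM in wild-type libraries (log2 0.27, adjusted p 0.286). Lamb1, Lamb2 and Lamc1 had log2 values of 0.04, 0.19 and 0.11, with adjusted p of 0.79, 0.422 and 0.446, and Lama1 and Lamb3 of −0.05 and 0.26, with 0.914 and 0.754. Nid1 and Nid2 had log2 values of −0.22 and 0.01, with adjusted p of 0.242 and 0.976. Per length, the ratio of Nid1 to Nid2 was 0.840, 0.813 and 0.844 in libraries labelled Tbx3-deficient and 0.947, 1.03 and 0.940 in wild-type libraries, lower in all 3 deficient libraries.

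Itga8 had 16.8, 16.5 and 13.3 CPM in libraries labelled Tbx3-deficient and 11.9, 8.23 and 12.8 CPM in Tbx3 wild-type libraries (log2 0.50, SE 0.177, adjusted p 0.255). Npnt had 27.6, 26.8 and 22.9 CPM in libraries labelled Tbx3-deficient and 28.9, 26.6 and 28.7 CPM in wild-type libraries (log2 −0.13, adjusted p 0.541). Itgav had 68.8, 60.7 and 67.3 CPM in libraries labelled Tbx3-deficient and 75.5, 93.4 and 88.5 CPM in wild-type libraries (log2 −0.39, SE 0.087, adjusted p 0.101). The groups of Itga8 and Itgav did not overlap and those of Npnt did. Itga9, the alpha chain that binds tenascin C, had 80.4, 103 and 84.2 CPM in libraries labelled Tbx3-deficient and 76.1, 71.2 and 68.6 CPM in wild-type libraries (log2 0.31, adjusted p 0.197). Its groups, too, lay apart. Itgb8, a chain that binds latent TGF-beta with alpha v, had 2.65, 2.78 and 2.63 CPM in libraries labelled Tbx3-deficient and 4.10, 5.37 and 3.96 CPM in wild-type libraries (log2 −0.73, adjusted p 0.115). Dag1 had 173, 178 and 169 CPM in libraries labelled Tbx3-deficient and 149, 147 and 160 CPM in wild-type libraries (log2 0.19, adjusted p 0.161). Neither overlapped between the groups. The remaining integrins and linkers had log2 values from −0.36 for Itga2 to 0.44 for Itgb4, with −0.28 for Itga1, −0.06 for Itga5, −0.03 for Itgb1, −0.02 for Itgb5, 0.01 for Itga6, 0.02 for Itga3, 0.04 for Hspg2, 0.07 for Agrn and 0.37 for Itga11. None of them was called. Over the 33 genes the groups did not overlap for 17, which is 51.5%, with 7 higher and 10 lower, beside 20.6% of all genes tested, of which 10.7% lay higher and 9.95% lower. An unadjusted p under 0.05 was reached by 17 of the 33 genes, 51.5%, beside 14.3% of all genes.

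Of the 33 genes tested, Itgb3 had the highest log2 value in the Tbx3 comparison, and 1 deficient library stood with the wild type. It encodes the beta 3 chain that pairs with alpha v on many cells and with alpha IIb on platelets. Itgb3 (ENSMUSG00000020689, chromosome 11, 104608000 to 104670476) had 8.06, 21.7 and 27.3 CPM in libraries labelled Tbx3-deficient and 8.07, 5.89 and 8.45 CPM in Tbx3 wild-type libraries. The groups overlapped, and the log2 value of 1.35 (SE 0.397) did not pass the test (adjusted p 0.183). Without Tbx3-deficient replicate 1, the library with 8.06 CPM, it was 1.71 with an adjusted p of 0.00908, and with no filter on low counts it was 1.36 with an adjusted p of 0.0194.

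Platelet markers were high in the same libraries. Itga2b, the alpha IIb chain, had 4.40, 9.94 and 13.0 CPM in libraries labelled Tbx3-deficient and 3.37, 2.43 and 4.23 CPM in Tbx3 wild-type libraries. Pf4, a chemokine of platelet granules, had 5.17, 12.8 and 11.8 CPM in libraries labelled Tbx3-deficient and 3.80, 1.13 and 3.84 CPM in wild-type libraries. The 6 platelet markers summed to 15.4, 35.3 and 38.3 CPM in libraries labelled Tbx3-deficient and 11.6, 5.68 and 10.9 CPM in wild-type libraries. All 6 had positive log2 values, with a median of 1.65, and the groups did not overlap for any of them. By edgeR 0 of the 6 were called, all 6 had an unadjusted p under 0.05, and DESeq2 called 3. In the Hand2 series, too, the library with the highest Itgb3, Hand2-deficient replicate 2 with 15.5 CPM, had the highest platelet sum, 21.4 CPM, against 7.66 to 13.1 CPM in the other 5 libraries. The part of platelets in the Itgb3 values was not tested.

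**Figure D5:**
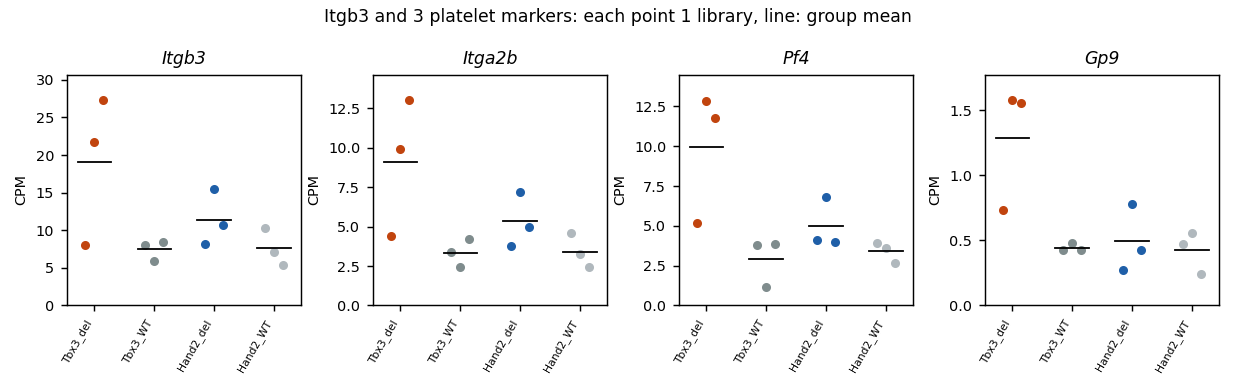
Level in CPM of Itgb3 and the platelet markers Itga2b, Pf4 and Gp9, 1 point per library with a line at each group mean; every axis starts at 0. Of the libraries labelled Tbx3-deficient, the one with Itgb3 at 8.06 CPM is also the lowest for the 3 markers, and those with 21.7 and 27.3 CPM are high for all of them.

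The Hand2 effect differed from the Tbx3 effect for 5 of the 35 genes, Lama2, Lamb2, Frem1, Npnt and Itga8, in a fit of all 12 libraries. That is 14.3%, beside 1.68% of the 17360 genes tested. For Lama2, Npnt and Itga8 the estimates of both series had opposite signs. For Frem1 and Lamb2 they had the same sign and differed in size. Each difference uses the libraries of both comparisons above, and it cannot be assigned to the gene lost, since stage and kind of loss differ too.

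The difference was 1.96 on the log2 scale for Lama2 (SE 0.330, adjusted p 0.0153), with estimates of 1.04 in the Hand2 series and −0.91 in the Tbx3 series. It was lost without Tbx3-deficient replicate 2, with an adjusted p of 0.0506. For Frem1 the difference was −0.70 (SE 0.120, adjusted p 0.0167), with −1.08 in the Hand2 series and −0.37 in the Tbx3 series, and it held without each of the 12 libraries in turn. For Itga4 the difference of 1.04 (SE 0.236) did not pass the test, with an adjusted p of 0.0523.

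For Npnt the difference was 0.54 (SE 0.106, adjusted p 0.0319), for Lamb2 0.69 (SE 0.142, adjusted p 0.0376) and for Itga8 −0.96 (SE 0.198, adjusted p 0.0382). These 3 depended on single libraries. Leaving out 1 library at a time, Npnt kept its call in 4 of 12 fits, with adjusted p up to 0.084, Lamb2 in 3 of 12, up to 0.0971, and Itga8 in 3 of 12, up to 0.0998. With embryo sex as a covariate Itga8 lost its call (−0.93, adjusted p 0.0619), and with voom Lamb2 did (0.70, adjusted p 0.0533). The calls were held by Npnt without Hand2-deficient replicate 2, Hand2 wild-type replicate 2, Tbx3-deficient replicate 1 or Tbx3 wild-type replicate 2, by Lamb2 without Hand2-deficient replicate 2, Hand2 wild-type replicate 2 or Tbx3-deficient replicate 1, and by Itga8 without Tbx3-deficient replicate 3, Tbx3 wild-type replicate 2 or Tbx3 wild-type replicate 3. Per length, the ratio of Npnt to Itga8 was 2.41, 2.38 and 2.53 in libraries labelled Tbx3-deficient, against 3.58, 4.75 and 3.28 in Tbx3 wild-type libraries, the reverse of the order in the Hand2 series.

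Further genes of the same pathways were taken from 5 lists of 83 genes in all. In the Hand2 comparison 75 were tested, and 10 rose and 2 fell, which is 13.3% and 2.67%, beside 4.68% and 5.82% of all genes. Among other ligands and linkers, Egfl6, a ligand of alpha 8 beta 1 that is related to nephronectin, had 2.75, 2.09 and 2.51 CPM in Hand2-deficient libraries, against 1.16, 1.60 and 1.26 CPM in Hand2 wild-type libraries (log2 0.87, adjusted p 0.036). Ntn4, a netrin that caps the laminin gamma chain, rose as well (log2 0.40, adjusted p 0.045). The integrin ligands Spp1 and Edil3 rose, with log2 values of 1.48 and 0.76.

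Of 23 integrin adaptors tested in the Hand2 comparison, Parva and Zyx rose (log2 0.24 and 0.13) and Fermt2, a kindlin that activates integrins, fell (log2 −0.25). Among the dystroglycan partners and enzymes of its sugar chains, Sgce, Sspn and Pomt1 rose and Sntb2 fell, although Dag1 itself did not pass the test. Sspn, sarcospan, had the largest of these rises (log2 0.95, adjusted p 0.019). Of 4 hemidesmosome partners, 0 were called by edgeR, 2 had an unadjusted p under 0.05 and DESeq2 called 2. Over all genes tested in the Hand2 comparison the last 2 shares were 32.4% and 22.9%. In the Tbx3 comparison 71 genes of the 5 lists were tested and 0 were called by edgeR. Of these, 11 had an unadjusted p under 0.05, beside 14.3% of all genes tested. DESeq2 called 5, beside 3.45% of all genes.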

How the data were processed

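The deposited values are expected counts, 1 per Ensembl gene and library, which the authors made with RSEM 1.3.0 after alignment tool STAR 2.5.2 and read checks by FastQC 0.11.4, all named with mm10 in the submitters' processing notes. Per the labels' protocols, RNA with an integrity number of at least 8.0 was made into SMARTer libraries and read as 85 bp single ends; the sources used here do not give strand, litters or days, so p-values measure the spread between these embryos. The expected counts were rounded. Genes were matched by identifier to GENCODE M21 on GRCm38, and 53274 of 53465 had a symbol. edgeR 4.0.16 (R 4.3.3) fitted the 6 libraries of each series, deficient against wild type. Low genes were removed by filterByExpr at a minimum count of 10 and a total of 15, libraries were scaled by TMM, and p-values of the quasi-likelihood F test were adjusted by Benjamini-Hochberg across every gene tested, with calls at an adjusted p under 0.05. Log2 values set deficient over wild type with a prior count of 0.125, and their SE is the absolute log2 value over the root of F. The difference of effects, Hand2 minus Tbx3, came from a fit of all 12 libraries.

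Replicates varied far beyond counting error, with a chi-square per gene of 14.04 to 29.62 in pairs without Hand2-deficient replicate 1. It was 209.2 and 223.4 in the 2 pairs with that library, which had 5.37% of its counts on 1 gene. These values are means over genes, and the part of that 1 gene in them was not tested. No library was counted as a duplicate, and intervals from counting alone are not given. The procedure was tested on simulated data. Alternatives were other size factors, no filter, DESeq2 1.42.0, voom in limma 3.58.1, a replicate block, embryo sex as a covariate, the Hand2 counts thinned to the Tbx3 depth, and leaving out each library. Same-numbered libraries of a series did not deviate together in every pair. Described in full are the genes called in a comparison or in the difference of effects; others are given by value or range. The 35 genes, the related lists and the marker lists were chosen with earlier results of these data known. Some related genes are not reported here, and counts over the related lists include them. Coordinates are GENCODE M21 on GRCm38, and promoters are RefSeq on GRCm38.p6; for 4 of the 5 printed, the last 30 bases were found in an annotated transcript of the gene, and not for Itga8.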

Additional observations from a re-analysis of the deposited data

Results flagged for a closer look

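For 5 genes the Hand2 effect and the Tbx3 effect differed by a test of the difference itself, at an adjusted p under 0.05 in edgeR's quasi-likelihood test over 17360 genes. The Hand2 minus Tbx3 difference on the log2 scale was 1.96 for Lama2, 0.69 for Lamb2, −0.70 for Frem1, 0.54 for Npnt and −0.96 for Itga8. In the Hand2 comparison 3 of 3 deficient libraries lay on one side of all wild-type libraries for each of the 5 genes. In the Tbx3 comparison this was so for Lama2, Frem1 and Itga8, and not for Lamb2 and Npnt. Stage, colony, the kind of loss and depth differ together between the series and cannot be told apart.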

How the results depend on the processing

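No result reversed its direction past the threshold under an alternative. In the Tbx3 comparison the 1 call among the 35 genes became 6 with no filter on low counts, 5 with DESeq2 and 0 with embryo sex as a covariate, where 8 had an unadjusted p under 0.05 in edgeR, and 0 to 1 when leaving out each library in turn. Over all genes the count of 153 became 504 with no filter, 551 with DESeq2, 99 with voom and 22 with sex, and 23 to 220 when leaving out each library. In the Hand2 comparison the 12 calls became 4 with sex and 2 to 11 when leaving out each library; they were 12 with DESeq2-type size factors, 11 with no filter, 15 with DESeq2, 13 with voom and 10 at the Tbx3 depth. All 12 called genes kept their direction in the alternatives run. Over all genes the count of 1836 became 3489 with DESeq2, 526 with sex, 1214 at the Tbx3 depth and 218 to 2223 when leaving out each library. For the difference of effects the 5 calls became 10 with DESeq2 and 1 to 6 when leaving out each library, and the 292 over all genes became 878 with DESeq2 and 123 to 336. With sex that difference lost Itga8 and gained Lama4 (adjusted p 0.0619 and 0.048), and with voom it lost Lamb2 (0.0533). The cause of these shifts was not tested. DESeq2 added Nid2, Itga11 and Itgb5 in the Hand2 comparison, and Lama4, Fras1, Frem1 and Itgav in the Tbx3 comparison.

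The replicate numbers do not pair the libraries: deviations of same-numbered libraries correlated at 0.0726, 0.0169 and −0.0177 in the Tbx3 series and −0.173, 0.0464 and 0.0937 in the Hand2 series. With a replicate block the Tbx3 calls were 87 over all genes and Itga4 kept its call (adjusted p 0.0216), the Hand2 calls were 2 of the 35 genes, Frem1 and Lamb2, and 161 over all genes, and the difference of effects was called by edgeR for 0 of the 35, 12 of which had an unadjusted p under 0.05, and for 69 genes in all. Lama3 and Itga7, with at most 12 counts per library in the Tbx3 series, could not be tested there.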
